A study of Schizosaccharomyces pombe with 21 samples.

Results

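Fission yeast (Schizosaccharomyces pombe) transcribes many long non-coding RNAs (ncRNAs) with RNA polymerase II, and most of these transcripts are kept scarce by the nuclear exosome. Many of them lie antisense to coding genes or start upstream of them. Transcription of some, such as the lncRNAs upstream of the phosphate acquisition (PHO) genes, interferes with the promoter of the coding gene that follows. Described here are 108 ncRNAs of the 1527 genes listed with an SPNCRNA identifier, whose level was low 4 h after phosphate was removed. They were selected on the deposited means: a 0 h mean normalised count (reads divided by the size factor of the library) of at least 50, an average below 1000 over the 7 time points, and a 4 h mean at or under 50% of the 0 h mean. The 0 h and 4 h values therefore chose the ncRNAs, the limit on the average drew on all 7 time points, and every comparison with 0 h below is a description without a test.

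Cells of one strain, h- ecl1∆::hygMX ecl2∆::natMX ecl3∆::kanMX, were sampled in log phase in YES, a rich yeast extract medium (0 h), then early (4, 8 or 12 h) and late (24, 36 or 48 h) in ePMGT(-PO4), a defined medium that holds no phosphate. Each of the 7 time points had 3 biological replicates, which makes 21 poly(A)+ RNA samples. All groups carry the triple ecl deletion, no wild-type cells are among them, and the loss of phosphate and the change of medium cannot be told apart in any comparison with 0 h. Of the deleted genes, ecl3 had a mean normalised count of 0 to 3.67, but ecl1 had 1472 to 4095 and ecl2 1934 to 3191. Whether those reads lay outside the deleted parts was not tested, so the strain is named here as labelled.

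Estimated depth, averaged over the 3 libraries of a time point, was lowest at 48 h (21100000 counted reads) and highest at 0 h (25900000). Single libraries lay around these averages, because size factors differed within a time point. They ran from 0.8036 to 1.0742 at 24 h, from 0.9264 to 1.2005 at 12 h and from 1.1181 to 1.3163 at 8 h. Because a normalised count is a share of the counted RNA, a lower value in these bulk cultures cannot be told apart from more of the other RNAs or less RNA per cell. The size factors were those of the authors. On that scale the median protein-coding gene with a mean of at least 10 shifted against 0 h by -0.04 (log2) at 4 h and by -0.24 at 48 h, whereas the median gene of all classes moved by no more than -0.04. Values of single libraries were rebuilt from the means, which keep 10 significant digits, for genes whose mean was below 1000 and could be made from only one set of whole reads. The rebuilt libraries of a time point are called a, b and c and carry no replicate number. This gave all 3 libraries for 78 of the 108 ncRNAs at 0 h, for all 108 at 4 h and for 75 at all 7 time points.

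Before starvation the 108 ncRNAs had 0 h means of 52.06 to 2746 normalised counts, with a median of 201.4. At 4 h their median level was 36.8% of 0 h, 22 of them were at or under 25% and 5 at or under 10%. By the same measure 14% of all genes with a 0 h mean of at least 50 were at or under 50% at 4 h, and the 641 other ncRNAs with the same level limits had a median of 125%. Just inside the limit lay SPNCRNA.1664 (49.2% of 0 h), SPNCRNA.1370 (49.4%) and SPNCRNA.1424 (49.9%). Just outside it lay SPNCRNA.1063 (50.3%), SPNCRNA.916 (50.4%) and SPNCRNA.1342 (50.6%). A further 4 SPNCRNA genes passed the limits on the 0 h and 4 h means but had an average of at least 1000, namely SPNCRNA.445, SPNCRNA.863, SPNCRNA.934 and nc-tgp1 (SPNCRNA.1698), the lncRNA that interferes with the glycerophosphodiester transporter gene tgp1.

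The annotation placed 107 of the ncRNAs, all but SPNCRNA.893, with 45 on chromosome I, 41 on chromosome II and 21 on chromosome III. Their annotated lengths ran from 238 to 4561 bases with a median of 1286. The reference describes 24 of them (22.4%) as possible alternative UTRs, beside 17.1% of the other ncRNAs with the same limits. Several lie together and are not independent points. SPNCRNA.525 and SPNCRNA.1073 overlap on opposite strands over 499 bases, SPNCRNA.242 and SPNCRNA.965 over 335, and SPNCRNA.121 and SPNCRNA.1285 over 123. SPNCRNA.1296 and SPNCRNA.1297 overlap in the same way. SPNCRNA.1370 and SPNCRNA.1371 share 42 bases of the same strand, and SPNCRNA.611, SPNCRNA.612 and SPNCRNA.613 follow each other within 369 bases. For HTSeq, a strand setting was not given in the sources used here. Overlapping transcripts may therefore share reads.

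The ncRNAs parted ways after 4 h. By 48 h, 58 of the 108 had returned to within 2-fold of 0 h, 36 stood at or under 50% and 14 had overshot to at least 2 times 0 h. Of all genes with a 0 h mean of at least 50, 20.6% were at or under 50% at 48 h and 21% at or above 2 times 0 h, and of the other ncRNAs with the same limits 6.4% and 49.1%. The median of the 108 was 73.9% of 0 h at 48 h, a log2 ratio of -0.44, against -0.12 for all genes and 0.99 for the other ncRNAs. On a scale set to the median protein-coding gene it was -0.20.

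**Figure D1:**
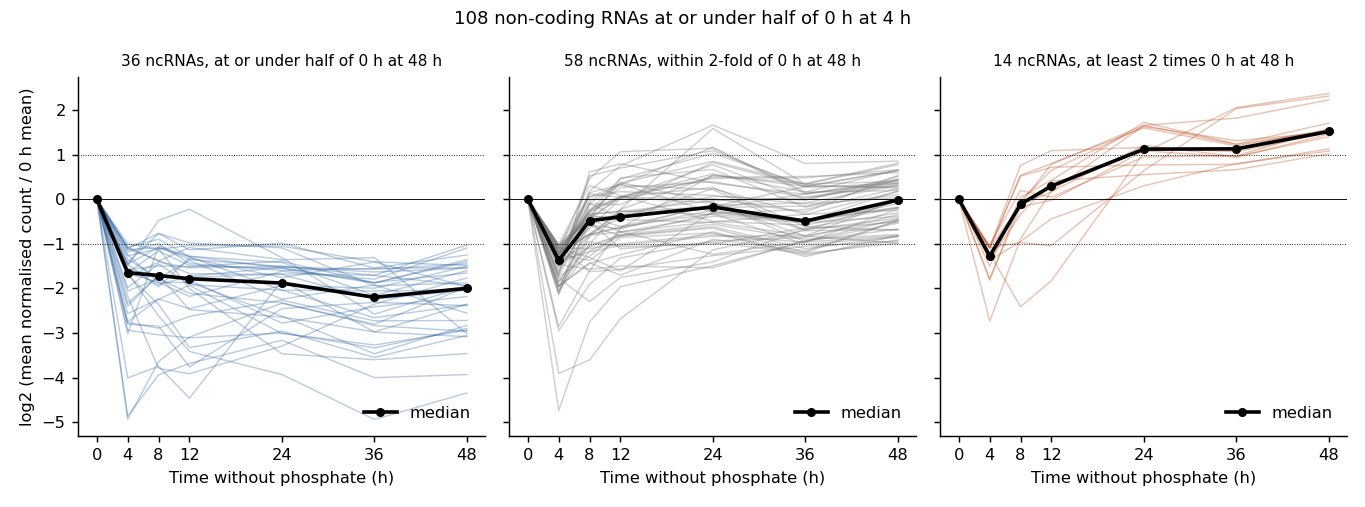
Each thin line is 1 ncRNA, the vertical axis its log2 ratio of the mean normalised count to 0 h and the horizontal axis hours without phosphate; black points and lines are group medians and dotted lines mark 2-fold. The 36 ncRNAs on the left stay near a median of -1.65 to -2.20 from 4 h to 48 h, the 58 in the middle return to -0.02, and the 14 on the right reach 1.52.

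The recovery was uneven over the course. The median of the 108 was 36.8% of 0 h at 4 h, 52.7% at 8 h and 57.1% at 12 h. It was 70% at 24 h, 59% at 36 h and 73.9% at 48 h. Their 0 h mean was reached or passed by 14 ncRNAs at 8 h and by 42 at 48 h. Of the 5762 genes with a 0 h mean of at least 50, 2697 and 2664 did so, and of the 641 other ncRNAs 555 and 514. At 8 h 58 ncRNAs were above 50% of 0 h, 7 more first passed that level at 12 h, 7 at 24 h, 4 at 36 h and 1 at 48 h, while 31 never did. The 4 h sample held the lowest mean of the course for 68 of the 108, a count that the selection on a low 4 h mean favoured. At or under 50% of 0 h were 50 ncRNAs at 8 h, 49 at 12 h, 42 at 24 h and 44 at 36 h, where 17.7%, 17.5%, 19.2% and 19.2% of all genes were. At or above 2 times 0 h were 0, 2, 15 and 8 ncRNAs at those times, beside 18.5%, 19%, 21% and 19.8% of all genes. The highest mean was that of 0 h for 61 ncRNAs, of 48 h for 21 and of 24 h for 18. The selection favoured 0 h here and left out 4 h.

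Replicate spread was largest at 24 h. The median coefficient of variation of the ncRNAs among the 3 rebuilt libraries was 11.3% at 0 h and 13.7 to 17.6% at 4, 8, 12, 36 and 48 h, but 26.5% at 24 h. There, library a had a median log2 difference of -0.52 from the mean of the other 2 over 84 of the ncRNAs and was above it for only 17, while its median over 1111 protein-coding genes was -0.01. Without it, 18 rather than 15 ncRNAs were at or above 2 times 0 h at 24 h. The 12 h libraries were uneven too. Over 84 ncRNAs, library b differed by a median of 0.28 (log2) and was above the other 2 for 70. Library c differed by -0.19 and was above them for 18. Over protein-coding genes the medians were 0.06 and -0.06. Among the 75 ncRNAs rebuilt at 0 h and 48 h, all 3 libraries of 48 h lay below all 3 of 0 h for 31, above them for 28, and overlapped them for 16. Of the 874 genes with a 0 h mean of at least 50 that could be rebuilt at both times, 18.5% lay below and 65.9% above.

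The lncRNAs prt and prt2 of the PHO cluster were low at 4 h and within 2-fold of 0 h again at 8 h. The reference annotates prt (SPNCRNA.1712) as a cis-acting lncRNA that represses pho1, the gene for a secreted acid phosphatase, and prt2 (SPNCRNA.9001) as one that represses pho84, a phosphate transporter gene. The 0 h libraries gave 178.9, 140.7 and 163.6 normalised counts of prt, those of 4 h 71.57, 48.14 and 67.17. They were followed by 132.2, 153.5 and 162.8 in the 8 h libraries, and the course ended with 236.5, 210.6 and 309.3. All 4 h values of prt were thus below all 0 h values, a separation that the selection on this contrast favoured. Its 8 h values overlapped those of 0 h, and its 48 h values lay above them. From 8 h to 48 h the log2 difference of prt was 0.74 ± 0.25 (SE; adjusted p = 0.025, limma), short of the 2-fold needed for a call.

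The means of prt2 were 864 at 0 h, 283.9 at 4 h, 619.2 at 8 h and 1176 at 48 h. The mRNAs they repress took another course: the mean of pho1 was 8.46-fold higher than 0 h at 4 h and 7.01-fold at 48 h, and that of pho84 4.09-fold and 5.96-fold. Both lncRNAs overlap the coding gene on the same strand, so reads in the shared stretch could belong to either. pho84 also lies within 500 bases of prt on the same strand. From 4 h on its means were 93701 to 158336, beside 62.3 to 284.9 of prt. Whether reads of the coding genes were counted for the lncRNAs was not tested. The authors, citing earlier work, describe lncRNA synthesis as shut off when the PHO genes are induced. SPNCRNA.1343, the bidirectional partner of nc-tgp1 that the annotation calls non-functional, went from a mean of 932.1 before starvation to 120.4 at 4 h. Its 8 h libraries gave 223.4, 233.9 and 286.2 normalised counts, those of 48 h 737.1, 723.5 and 737.8, with no overlap. That is a log2 increase of 1.57 ± 0.17 (SE; adjusted p = 8.1e-07, limma), to 78.6% of 0 h. nc-tgp1 itself, outside the limits, had means of 646.4, 239.4 and 1816 at 0, 4 and 48 h.

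**Figure D2:**
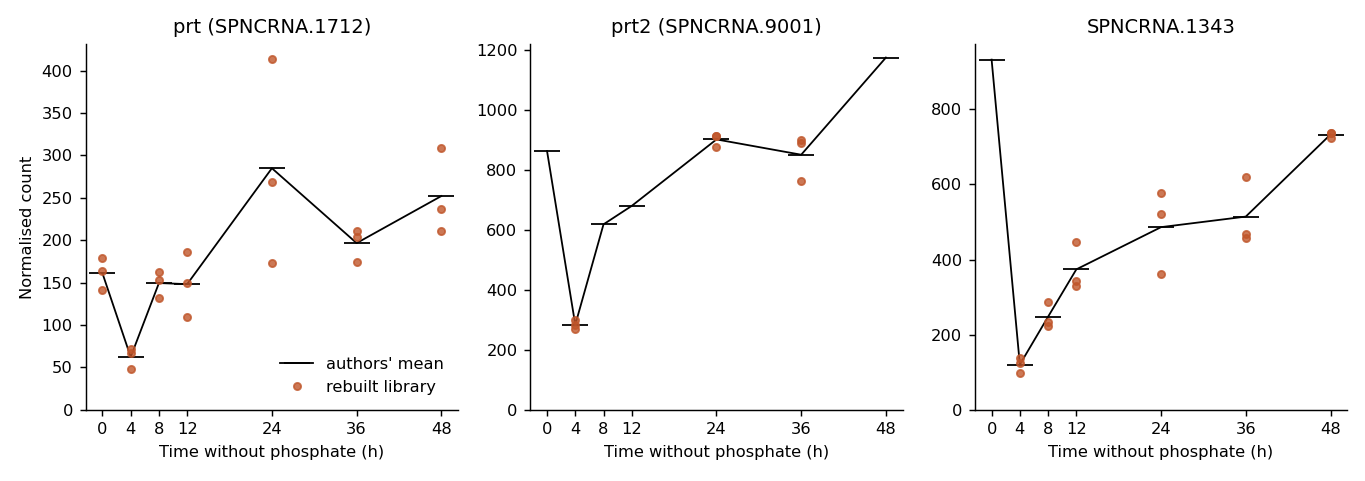
Normalised counts of prt, prt2 and SPNCRNA.1343 (vertical axes, starting at 0) against hours without phosphate; black bars joined by a line are the authors' means and orange points are rebuilt libraries, missing where a mean could not be split. All 3 have their lowest mean at 4 h, where the selection required a low mean. prt and prt2 end at 252.1 and 1176, above 0 h.

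A list of 8 names of known lncRNAs matched 6 genes, since prt and nc-pho1 name the same gene and sme2 was not matched. At 4 h, 3 of the 6 were at or under 50% of 0 h (prt, prt2 and nc-tgp1, of which the first 2 belong to the 108) and none at or above 2 times, beside 14% and 12.5% of all genes. At 48 h none of the 6 was at or under 50% and 3 were at or above 2 times 0 h, beside 20.6% and 21%. omt3 (SPNCRNA.130) went from 830.5 to 717.4 at 4 h and 10926 at 48 h, and ter1, the telomerase RNA, from 401.6 to 327.6 and 662.3. Genes of RNA decay and termination were listed beside them. Of 23 matched genes of the nuclear exosome and its helpers, 5 were at or under 50% of 0 h at 4 h and 0 at or above 2 times, with a median log2 ratio of -0.72, beside 14% and 12.5% of all genes and their median of -0.03. The exosome helicase gene mtr4 went from 7744 to 2512, the poly(A) polymerase gene cid14 from 4365 to 1406, and the exonuclease gene rrp6 from 3440 to 2037, whereas red5, of the same list, went from 1832 to 2781 at 4 h and 6488 at 48 h. A list of 17 names for termination and 3′ end processing held 2 genes of other roles, pap1, a stress transcription factor gene, and clp1, a phosphatase gene, and none of the 17 moved past 2-fold at 4 h.

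The 5 lowest ratios at 4 h belonged to transcripts annotated at 322 to 862 bases. The mean of SPNCRNA.1461 was 738.8 before starvation and 24.15 at 4 h, 3.27% of 0 h, and that of SPNCRNA.1192 was 436.9 and 15.02, 3.44%. SPNCRNA.1192 lies antisense to wtf11, a member of the repeated wtf family, and its reads could be shared with other copies. SPNCRNA.525 and SPNCRNA.1073, the overlapping pair, stood at 3.74% and 6.67%. The libraries of SPNCRNA.1073 gave 199.7, 197.4 and 220.6 normalised counts before starvation, then 9.672, 20.63 and 10.87 at 4 h, then 221.2, 194.1 and 187.8 at 48 h. Its 4 h values lay below all of 0 h, which the selection on this contrast favoured. Its 48 h values overlapped those of 0 h again.

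SPNCRNA.1444, which lies within 500 bases of rpl26 on the same strand, had 72.79, 73.49 and 55.94 normalised counts before starvation, then 12.57, 0 and 0 at 4 h, a count too low to give a firm ratio. The other 5 of the 10 lowest were SPNCRNA.1463 (12.3% of 0 h), SPNCRNA.1343 (12.9%), SPNCRNA.1096 (13.1%), SPNCRNA.756 (13.8%) and SPNCRNA.1261 (14.3%). SPNCRNA.1096 was the most abundant of all 108 at 0 h, with a mean of 2746, and stood at 358.8 when sampled at 4 h, against 367.9 when sampled last. By 48 h these 10 had ended anywhere from 6.55% of 0 h for SPNCRNA.1192 to 156% for SPNCRNA.756.

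Among the 36 that stayed low, 31 were at or under 50% of 0 h at every time from 4 h to 48 h. Their median was 31.9% at 4 h and 25% at 48 h. The lowest at 48 h was SPNCRNA.291, with means of 568.4 at 0 h, 180.2 at 4 h, 92.82 at 8 h and 27.97 at 48 h. Its 8 h libraries gave 78.25, 69.62 and 130.6, those of 48 h 39.76, 25.37 and 18.78, without overlap, a log2 decrease of -1.70 ± 0.41 (SE; adjusted p = 0.0024, limma). SPBC359.01, an amino acid permease gene that starts on the other strand nearby, stood at 1.49-fold of 0 h at 4 h and at 7.21% at 48 h.

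SPNCRNA.1310 reached 9.08% of 0 h at 48 h. Its libraries gave 124.8, 145.9 and 126.7 normalised counts before starvation, then 50.9, 61.59 and 71.55 at 8 h, then 17.33, 9.926 and 8.836 at 48 h, and each set lay below the one before. The others of the 10 lowest at 48 h were SPNCRNA.1192, SPNCRNA.1444 (11.8%), SPNCRNA.1610 (12%), SPNCRNA.1134 (12.3%), SPNCRNA.613 (12.8%), SPNCRNA.721 (13%), SPNCRNA.1096 (13.4%) and SPNCRNA.703 (14.1%). SPNCRNA.1610 lies antisense to rav1, a gene of the RAVE complex that assembles the vacuolar proton pump, and SPNCRNA.703 antisense to slp1, an activator of the anaphase-promoting complex.

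An antisense overlap with a coding gene was annotated for 27 of the 36 ncRNAs that stayed low (75%), near the 78.2% of the other ncRNAs with the same limits, for 29 of 57 that returned (50.9%) and for 4 of 14 that overshot (28.6%). Over all of them it was 60 of 107 (56.1%). Of the 71 antisense partners, 26.8% were at or above 2 times 0 h at 4 h, beside 15% for the other ncRNAs and 12.5% of all protein-coding genes, and 12.7% were at or under 50%, beside 12.8% and 13.8%. At 48 h, 31% were at or above 2 times 0 h, beside 19.5% and 18.1%. An overlap with a coding gene on the same strand was annotated for 19 of 107 ncRNAs (17.8%) and for 13.2% of the other ncRNAs. Of these 20 same-strand partners, 30% were at or above 2 times 0 h at 4 h, beside 15.3% for the other ncRNAs. At or under 50% were 20%, beside 10.6%.

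The 11 antisense partners that were at least 4-fold higher than 0 h at 4 h were named after their values were seen. SPNCRNA.1324 lies antisense to fbp1, the gluconeogenic fructose-1,6-bisphosphatase gene that glucose represses. Its means were 850.7, 268.6, 187.7 and 398.8 at 0, 4, 12 and 48 h, while those of fbp1 went from 113.2 at 0 h to 3460 at 4 h and 23076 at 48 h. SPNCRNA.1487 stood at 14.7% of 0 h at 4 h and 15.2% at 48 h, and its partner mag2, a DNA glycosylase gene, at 26.7-fold and 75.8-fold. Those ratios of mag2 rest on a low 0 h mean of 12.25. SPNCRNA.1690, antisense to the amine oxidase-like gene cao2, went from a mean of 1697 to 373.9 at 4 h, then 122.6 at 8 h. Its 8 h libraries gave 129.2, 132.1 and 106.4, those of 48 h 570.9, 466.5 and 461.7, a log2 increase of 2.02 ± 0.18 (SE; adjusted p = 4.2e-08, limma) that still left it at 29.5% of 0 h. cao2 meanwhile stood at 19.7-fold of 0 h at 4 h and 52.8-fold at 48 h. SPNCRNA.1505, at 50.5% of 0 h at 48 h, lies antisense to the phosphoketolase gene SPBC24C6.09c, which was 44.4-fold higher than 0 h at 4 h, the highest of these ratios. The neighbours SPNCRNA.611, SPNCRNA.612 and SPNCRNA.613 lie antisense to the transporter gene SPAC11D3.18c (10.6-fold at 4 h), the D-glutamate cyclase gene dgc1 (26.8-fold) and the glyoxalase gene hsp3102 (6.34-fold). The 0 h mean of hsp3102 was also low, 25.86. The other pairs were SPNCRNA.706 with ssd2 (23.8-fold), SPNCRNA.977 with the aminotransferase gene SPAC27F1.05c (17.2-fold), SPNCRNA.1560 with the rhomboid peptidase gene rbd3 (5.67-fold) and SPNCRNA.807 with the F-box gene pof14 (4.08-fold). On its own strand SPNCRNA.807 overlaps byr3, which was 5.18-fold lower at 4 h. SPNCRNA.611 and SPNCRNA.612 overlap same-strand genes that were higher, SPAC11D3.17 (2.56-fold) and hsp3102 (6.34-fold).

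Coding genes that start close by on the other strand looked different. This divergent arrangement, a coding gene that points away and starts within 500 bases, was examined after the data were seen. It was annotated for 40 of 107 ncRNAs (37.4%) and for 36.3% of the other ncRNAs with the same limits. At 4 h, 16 of the 40 divergent partners (40%) were at or under 50% of 0 h, against 9.91% of those of the other ncRNAs. At or above 2 times 0 h were 3 (7.5%), against 13.8%: SPBPB2B2.05 (15.4-fold), SPAP32A8.02 (2.59-fold) and SPBC18H10.05 (2.12-fold). The median log2 ratio of the 40 was -0.52, against 0.08. By 48 h, 37.5% were at or under 50%, against 23.3%, and 20% at or above 2 times 0 h, against 20.3%. Of the 16 ncRNAs whose divergent partner was low at 4 h, 11 had returned by 48 h, 3 had overshot and 2 stayed low.

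**Figure D3:**
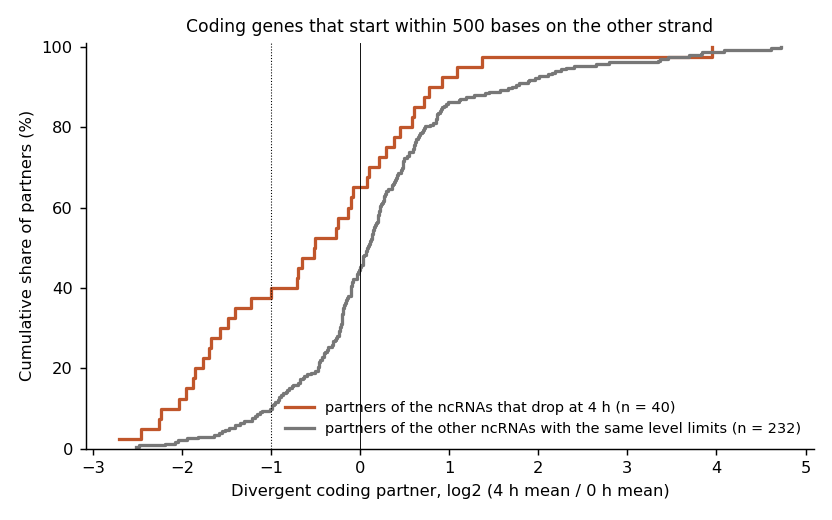
The horizontal axis is the log2 ratio of 4 h to 0 h of each divergent coding partner and the vertical axis the cumulative share of partners in percent; the dotted line marks -1. At that line the curve of the 40 partners of the ncRNAs that drop at 4 h stands at 40%, that of the 232 partners of the other ncRNAs at 9.91%.

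The 16 partners that were low at 4 h had various roles. The lowest was SPBC215.06c, a gene of the LYHRT family that faces SPNCRNA.1658, at 6.56-fold below 0 h. SPNCRNA.1624, annotated as heat shock specific, stands divergent to rps1801, a gene of the small ribosomal subunit that was 5.51-fold lower at 4 h. SPNCRNA.1150 faces rpl2802, of the large subunit, 4.7-fold lower, and SPNCRNA.1034 faces rps3001, 2.99-fold lower. SPNCRNA.1031 faces btf3, a subunit of the nascent polypeptide-associated complex, 4.8-fold lower, and SPNCRNA.756 faces the ribosome biogenesis gene rlp7, 4.09-fold lower. SPNCRNA.1493 (prl38) faces the initiation factor gene tif213, 3.89-fold lower, SPNCRNA.1602 faces ker1, for a subunit of RNA polymerase I, 3.67-fold lower, and SPNCRNA.228 faces the ribosome biogenesis gene rrp14, 3.63-fold lower. SPNCRNA.264 faces ade4, for the first enzyme of purine synthesis, 3.19-fold lower. The other 6 were the transporter gene SPCC320.08 (SPNCRNA.1114, 3.4-fold lower), SPAP8A3.07c (SPNCRNA.525, 3.26-fold) and SPAC24H6.10c (SPNCRNA.652, 2.81-fold), both for an aldolase of aromatic amino acid synthesis, the sulfite reductase gene sir1 (SPNCRNA.724, 2.66-fold), the chaperone gene mas5 (SPNCRNA.1409, 2.34-fold) and the lipase gene ptl3 (SPNCRNA.710, 2.01-fold).

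A ribosomal protein gene was a partner, in any of the arrangements, of 6 of 107 ncRNAs (5.61%) and of 2.67% of the other ncRNAs. Besides SPNCRNA.1034, SPNCRNA.1150 and SPNCRNA.1624 these were SPNCRNA.1261, SPNCRNA.1444 and SPNCRNA.1483. SPNCRNA.1261 overlaps rps20 on the other strand and rps2 on its own, and its 0 h libraries gave 167.4, 112.3 and 149.9 normalised counts, those of 4 h 29.02, 9.825 and 22.72, those of 48 h 33.64, 26.47 and 22.09. It thus stayed below the 0 h libraries, at 19.1% of 0 h at 48 h, when rps20 stood at 46.6% and rps2 at 32.8%. SPNCRNA.1483, a snoRNA primary transcript near rpl8, had means of 573.4, 239.1, 466.6 and 656.7 at 0, 4, 8 and 48 h, while rpl8 stood at 26.3% of 0 h at 4 h and 38.5% at 48 h. SPNCRNA.1034 had 112.3, 76.64 and 119.3 normalised counts before starvation, then 32.89, 17.69 and 24.7 at 4 h. Its log2 difference from 8 h to 48 h was 0.69 ± 0.32 (SE; adjusted p = 0.092, limma), which did not pass.

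The windows from 250 bases before to 50 after each annotated start were searched on both strands for 5 motifs. The HomolD box (CAGTCACA), the element that takes the place of a TATA box in fission yeast ribosomal protein genes, was in 10 of 107 windows (9.35%). It was in 0.942% of the windows of the other ncRNAs and in 2.59% of those of all genes. Read the other way, 10 of the 16 ncRNAs with these level limits and a HomolD box (62.5%) were at or under 50% of 0 h at 4 h, a share that rests on the selected contrast, and so were 79.6% of the 137 protein-coding genes with a box. The boxes of 9 of these ncRNAs are shown because their place and orientation can be compared. Each sequence is 30 bases of the ncRNA's own strand, from RefSeq assembly ASM294v3, 5′ to 3′, with the box in capitals, which reads TGTGACTG where it lies on the other strand.
SPNCRNA.1031 (chromosome I, box 140 bases before the start): gtaccgaaatgTGTGACTGctcccatactt
SPNCRNA.1034 (chromosome I, 70 bases): aagaaactaagCAGTCACAttttggattcg
SPNCRNA.1096 (chromosome III, 34 bases): cttaatcctcgCAGTCACAaatttatttaa
SPNCRNA.1192 (chromosome III, 63 bases): agtattgctgaCAGTCACAatgttttatta
SPNCRNA.1461 (chromosome II, 88 bases): acacaaaagcgCAGTCACAgtgatcaaaat
SPNCRNA.1615 (chromosome II, 58 bases): ctaacagggcgTGTGACTGgaatattctta
SPNCRNA.242 (chromosome I, 17 bases): ggttaggttaaTGTGACTGcttcgtagtac
SPNCRNA.722 (chromosome I, 72 bases): gtatacaaaatTGTGACTGctgtctttaac
SPNCRNA.756 (chromosome I, 40 bases): tagctatgaaaTGTGACTGctttaagacac

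The ncRNAs with a box did not share one later course. SPNCRNA.1096, SPNCRNA.1192 and SPNCRNA.1461 stayed low, SPNCRNA.242 and SPNCRNA.1615 overshot, and the other 5 returned to within 2-fold. Of the 10, 4 have a divergent coding partner, SPNCRNA.1031, SPNCRNA.1034 and SPNCRNA.756 among them, and all 4 partners were at or under 50% of 0 h at 4 h.

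The CRE core (TGACGT), the centre of the element bound by Atf1-type factors, was in 13 windows (12.1%), against 5.81% for the other ncRNAs and 6.23% for all genes. Among those that stayed low it was in 6 of 36 windows (16.7%), among those that returned in 7 of 57 (12.3%) and among those that overshot in 0 of 14. These differences were not tested. prt and prt2 both carry it, 60 and 63 bases before the start. The HomolE box (ACCCTACC) was in 1.87% of the windows against 1.42% for all genes, the Ste11 TR box core (TTCTTTGTT) in 2.8% against 2%, and the MCB (ACGCGT), a cell cycle element of S phase genes, in 0 of 107 against 2.91%. The median GC content of the windows was 31.3%, against 33% for all genes.

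**Figure D4:**
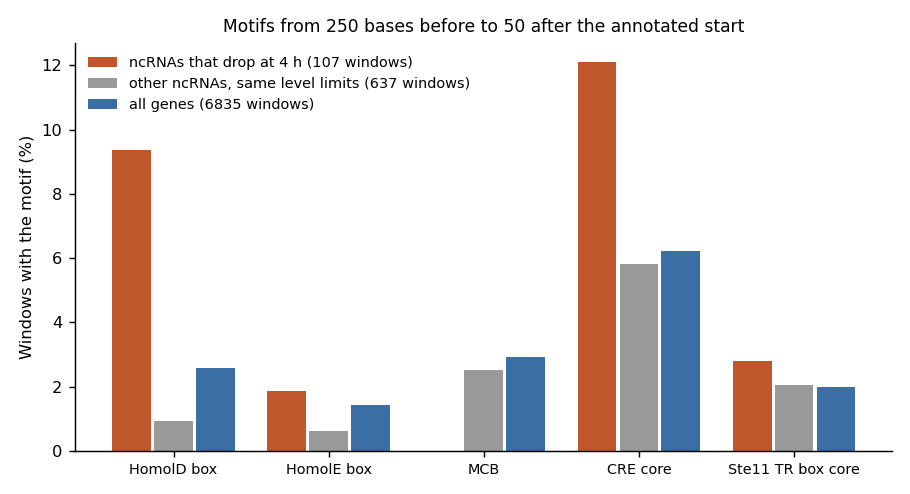
Bars give the share of windows (250 bases before to 50 after the annotated start) that hold each motif on either strand, in percent, for 107 ncRNAs that drop at 4 h, 637 other ncRNAs with the same level limits and 6835 genes of all kinds. The HomolD box is in 9.35%, 0.942% and 2.59% of windows.

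The 14 ncRNAs that overshot had a median of 41.4% of 0 h at 4 h, 92.5% at 8 h, 218% at 24 h and 287% at 48 h. The highest ratio at 48 h was that of SPNCRNA.1079, which lies antisense to the endonuclease gene rad2. Its libraries gave 317.2, 349.6 and 277.6 normalised counts at 0 h, 129.6, 139.5 and 138.3 at 4 h. They gave 56.98, 58.91 and 61.71 when sampled at 8 h, then 656.3, 698.5 and 596.1 at 24 h. The 8 h values were the lowest and the 24 h values all above those of 0 h, and the mean reached 1630 at 48 h, 5.18-fold of 0 h. rad2 went from 939.1 at 0 h to 477.4 at 48 h. SPNCRNA.1319, antisense to the hexose transporter gene ght4, was similarly late, with means of 94.94 at 4 h, 98 at 12 h, 314.1 at 24 h and 1002 at 48 h, 4.97-fold of 0 h.

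SPNCRNA.264 was still below 0 h at 8 h and rose above it later. Its libraries gave 61.35, 56.69 and 64.39 normalised counts at 0 h, 10.64, 8.843 and 7.902 at 4 h. They gave 37.99, 24.1 and 36.67 when sampled at 8 h, then 264, 293.4 and 297.1 at 48 h. It differed at both steps, with all 8 h values below 0 h and all 48 h values above it, and rose by 3.10 ± 0.20 on the log2 scale from 8 h to 48 h (SE; adjusted p = 7.9e-10, limma). The other overshooting ncRNAs among the 10 highest were SPNCRNA.1114 (3.27-fold of 0 h at 48 h), SPNCRNA.1409 (2.99-fold), SPNCRNA.239 (2.96-fold), SPNCRNA.1615 (2.91-fold), SPNCRNA.178 (2.83-fold), SPNCRNA.984 (2.82-fold) and SPNCRNA.242 (2.75-fold). SPNCRNA.1409 faces mas5, a gene of a DNAJ chaperone, which stood at 42.8% of 0 h at 4 h and 35.7% at 48 h. SPNCRNA.178 faces the uracil transporter gene fur4, at 92.9% and 37.1%.

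To test the later course without the contrast that chose the ncRNAs, the 15 rebuilt libraries of 8 h to 48 h were fitted without those of 0 h and 4 h. The limit on the average does use these times. It left out 4 genes, whose means at 48 h were 1.07-fold (SPNCRNA.863) to 4.1-fold (SPNCRNA.445) those of 8 h. All 4 had a mean of at least 1000 at one of these times or more, so 0 of them could have entered the fit, which describes ncRNAs of lower level. The fit held 1233 genes, among them 93 of the 108 ncRNAs. Of the others, 14 could not be rebuilt at all 5 times and 1 had a mean below 10. Only 11 of the 14 ncRNAs that overshot were fitted. SPNCRNA.1079, with the highest ratio at 48 h, SPNCRNA.1319 and SPNCRNA.1615 had 48 h means of at least 1000 and could not enter. Between 8 h and 48 h, 22 of the 93 rose and 6 fell at an adjusted p of at most 0.05 and at least 2-fold (limma), where 13.9% and 7.87% of the genes fitted rose and fell. Their median log2 difference was 0.45, against 0.12 for all genes fitted. Of those that rose, 11 were among the ncRNAs within 2-fold of 0 h at 48 h, 9 among those that overshot and 2, SPNCRNA.1461 and SPNCRNA.1690, among those that stayed low. All 6 that fell stayed low: SPNCRNA.291, SPNCRNA.613, SPNCRNA.630, SPNCRNA.1310, SPNCRNA.1340 and SPNCRNA.1599. The 48 h libraries enter both the grouping and the fit, so this split of the calls by group is a description and no independent result. Of the calls, 17 rises and 4 falls were made in all 13 alternative fits.

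**Figure D5:**
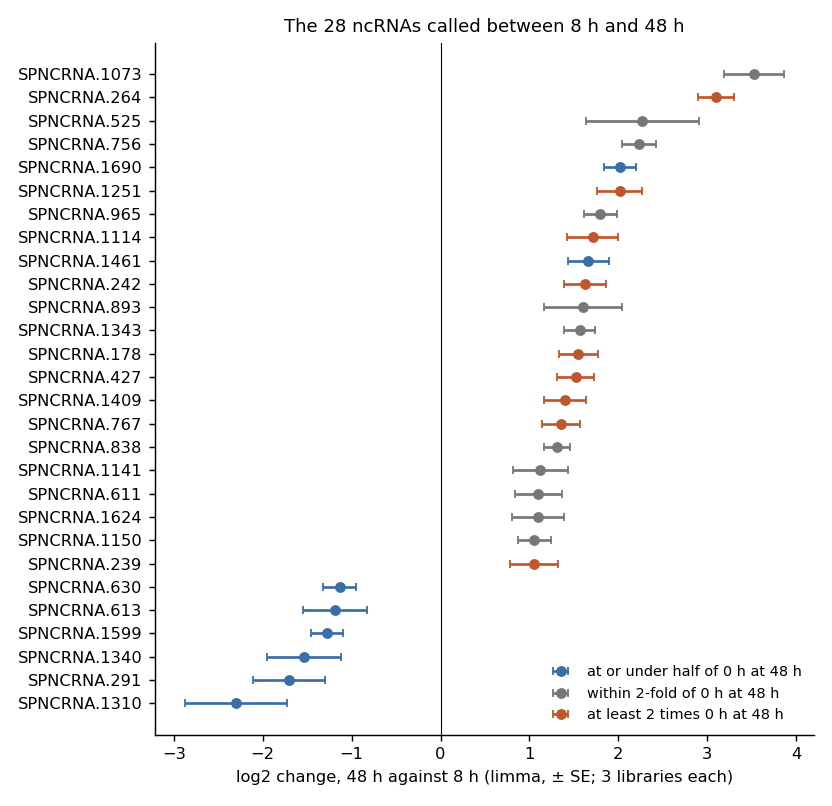
Points are the log2 change from 8 h to 48 h of the 28 ncRNAs called, with bars of ± SE from limma (3 libraries each), coloured by the level at 48 h relative to 0 h. Colour and change share the 48 h libraries. SPNCRNA.1073 has the highest value, 3.53, and SPNCRNA.1310 the lowest, -2.30.

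The largest rise after 8 h was that of SPNCRNA.1073, by 3.53 ± 0.34 on the log2 scale (SE; adjusted p = 1.3e-07, limma), which brought it back to 97.6% of 0 h. SPNCRNA.525 on the other strand rose by 2.27 ± 0.64 (adjusted p = 0.0074). SPNCRNA.756 rose by 2.23 ± 0.19 (adjusted p = 3.2e-08), from 96.48, 92.83 and 108.2 normalised counts at 8 h to 434.3, 440 and 540.1 at 48 h. SPNCRNA.1461 rose by 1.66 ± 0.23 (adjusted p = 1e-05) to 25.6% of 0 h only. SPNCRNA.1340 fell by 1.53 and SPNCRNA.1599 by 1.28, after 8 h means of 138.3 and 357.6. SPNCRNA.1096 gave 0.14 ± 0.20 (adjusted p = 0.61) and SPNCRNA.1192 0.02 ± 0.48 (adjusted p = 0.97), values that place no tight limit on the second.

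Steps between neighbouring times held fewer calls. From 8 h to 12 h 1 ncRNA rose, SPNCRNA.264, and none fell, where 0.73% and 0.406% of the genes fitted rose and fell. From 12 h to 24 h 7 rose and 1 fell, beside 4.14% and 1.46%, and the 7 were SPNCRNA.242, SPNCRNA.264, SPNCRNA.756, SPNCRNA.893, SPNCRNA.1073, SPNCRNA.1114 and SPNCRNA.1624. From 24 h to 36 h 0 were called in either direction (limma; at an unadjusted p under 0.05, 4 higher and 21 lower), beside 0.243% and 3.81%. From 36 h to 48 h 0 were called (23 higher and 1 lower at an unadjusted p under 0.05), beside 1.05% and 0%. The steps to and from 24 h depend on its libraries: without library a, 15 rose from 12 h to 24 h and 12 fell from 24 h to 36 h, and without library c, 4 rose and 0 fell. No library of 12 h was left out, so how far the steps to and from 12 h depend on its libraries was not tested.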

How the data were processed

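Poly(A)+ RNA of 21 samples was sequenced from stranded paired-end libraries. Per the submitters' processing notes, HISAT2 2.1.0, SAMtools, HTSeq 0.10.0, DESeq2 and the genome build ASM294v2 were used. The authors deposited 1 table per starvation time, with their mean normalised counts, a signal made of read counts divided by size factors. Their tables also hold log2 fold changes, standard errors, p-values and adjusted p-values, which were not used. From each mean, the whole reads of its 3 libraries were solved in Python 3.11.15 with size factors (0.8036 to 1.3163) found from the steps between low means. In a simulation of the 8 h means, 2608 of the 2608 genes with 1 solution were recovered. The median coefficient of variation of rebuilt replicates was 0.0762 to 0.166, against 0.786 for shares drawn at random.

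limma 3.58.1 (R 4.3.3, with a variance trend) was fitted to log2(value + 1) of 15 libraries, for genes with a mean of at least 10, with Benjamini-Hochberg adjustment over all genes fitted. Genes with a mean of 1000 or more at any of these times are outside that fit, and its fold changes understate those of low genes. p-values measure the spread among 3 cultures per time point.

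Names, strands, lengths and neighbours came from RefSeq ASM294v3, which is not the authors' build, so no coordinates are given. Antisense partners overlap on the other strand, same-strand partners overlap or lie within 500 bases, and divergent partners lie within 500 bases. The genes named were the 10 lowest at 4 h, the 10 highest and 10 lowest at 48 h, those at the fold limit, list members and those beside ribosomal protein genes; others were named after their values were seen. The ncRNAs and the lists were chosen with earlier results of these data known. The sequence of 1 window is not reported here.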

Additional observations from a re-analysis of the deposited data

How the results depend on the processing

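The counts at 48 h kept within 1.5 times under rescaling, a pseudocount of 10, a 0 h minimum of 100, no upper limit on the average and each library of 0 h or 48 h left out. With classes separated at 1.5-fold, 38 ncRNAs were near 0 h and 22 above it. The median log2 ratio at 48 h was -0.20 on the protein-coding scale. A drop of at least 1.5-fold at 4 h selected 174 ncRNAs and one of 3-fold 43. Leaving out 1 library of 48 h or 0 h gave 36 to 41 ncRNAs at or under 50%, 55 to 59 within 2-fold, 12 to 14 above and medians of -0.43 to -0.37. Between 8 h and 48 h, leaving out 1 library gave 20 to 22 rises and 4 to 7 falls. Leaving out 1 library of 24 h, chosen after seeing the data, gave 4 to 15 rises from 12 h, 0 to 12 falls to 36 h and 12 to 18 ncRNAs at or above 2 times 0 h at 24 h. The cause was not tested. No paired analysis was possible because the columns carry no replicate numbers. Depth limits ratios of ncRNAs with few reads at 4 h, such as SPNCRNA.1444.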
